A study of Mus musculus with 2 samples.

Results

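Hpgd, Ptgs1, Ptgs2, Ptges, Ptgis, Tbxas1, Alox5, Alox5ap, Alox12 and Ltc4s are genes of prostaglandin, thromboxane and leukotriene metabolism, and they were taken by name from the 32285 genes counted in lung single-cell libraries. All 10 were found, and together they gave 163556 unique molecular identifiers (UMIs, each standing for 1 captured RNA molecule) from Cebpa fl/fl and 103805 from CebpaΔSftpc lungs. They were followed through endothelial, stromal, platelet and myeloid cells picked out by raw counts of marker genes. These cells were 8144 of the 11487 cells kept from Cebpa fl/fl lungs and 7210 of the 13238 cells kept from CebpaΔSftpc lungs.

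The study asked what the transcription factor C/EBPα does in alveolar type 2 (AT2) cells, which make surfactant. Control mice, labelled Cebpa FF, carried floxed Cebpa alleles, and the Cebpa KO mice carried these alleles with Sftpc-CreERT2, a recombinase made in cells that use the Sftpc promoter, mainly AT2 cells. The mice were of a mixed background and 3 months old unless stated otherwise, were given tamoxifen at 75 mg/kg on 5 days, with later weekly doses where they were kept beyond 3 months, and were harvested at week 26 after the first dose. Cells of 3 mice per genotype were pooled into 1 library each, the barcodes do not tell the mice apart, and so no difference between the genotypes has a replicate check and no test was possible. The labels speak of sorted live cells and the methods of whole-lung suspensions after red cell lysis, so shares of cells describe what was loaded.

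Prostaglandins and leukotrienes are short-lived lipid mediators made from arachidonate, which phospholipases free from membranes. The cyclooxygenases COX-1 (Ptgs1) and COX-2 (Ptgs2) make prostaglandin H2, from which Ptges makes prostaglandin E2, Ptgis makes prostacyclin and Tbxas1 makes thromboxane A2, and 15-hydroxyprostaglandin dehydrogenase (Hpgd) inactivates prostaglandins, a step for which the lung is known. In the other branch 5-lipoxygenase (Alox5), helped by the protein FLAP (Alox5ap), makes leukotriene A4, which Ltc4s joins to glutathione as leukotriene C4, while the 12-lipoxygenase Alox12 is the lipoxygenase of platelets.

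The deposited counts held 69200420 UMIs over 11721 barcodes for Cebpa fl/fl and 64697396 UMIs over 13373 barcodes for CebpaΔSftpc, with a median per kept cell of 4835 and 2607 UMIs. A lineage could be given to 10867 and 11116 cells, and 45 barcodes occurred in both libraries. Endothelial cells numbered 8006 and 8007, stromal cells 1604 and 835, platelets or megakaryocytes 450 and 245, and myeloid cells 42 and 1197. No myeloid type reached 20 cells in the Cebpa fl/fl library, so myeloid levels come from the CebpaΔSftpc library. A marker kept out of the gate of each type was higher there than in the other gated cells in nearly every type, for example Nrgn in platelets at 12600 and 7470 counts per 1000000 UMIs (CPM) against 21.9 and 23.3 elsewhere. The exceptions were Ace in nonclassical monocyte-like cells, at 610 CPM against 751 elsewhere in the Cebpa fl/fl and 790 against 767 in the CebpaΔSftpc library, and the erythroid marker Hemgn, without a UMI in 8 Cebpa fl/fl cells. The targeted gene Cebpa stood at 158 CPM (95% Poisson interval 150 to 167) in 380 Cebpa fl/fl AT2-like cells and at 129 CPM (109 to 152) in 61 CebpaΔSftpc AT2-like cells. These intervals overlap. The share of AT2-like cells with a Cebpa UMI was lower in the CebpaΔSftpc library, at 68.9% (55.7 to 80.1) against 90.0% (86.5 to 92.8), at median depths of 21671 and 21132 UMIs. AT2-like cells were gated by AT2 markers such as Abca3, so cells that had lost these markers would not be among them. All intervals given are 95% intervals that reflect counting error only. Levels are CPM, the UMIs of a gene summed over the cells of a type and scaled to 1000000 UMIs of these cells, and are compared within a gene across types.

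**Figure D1:**
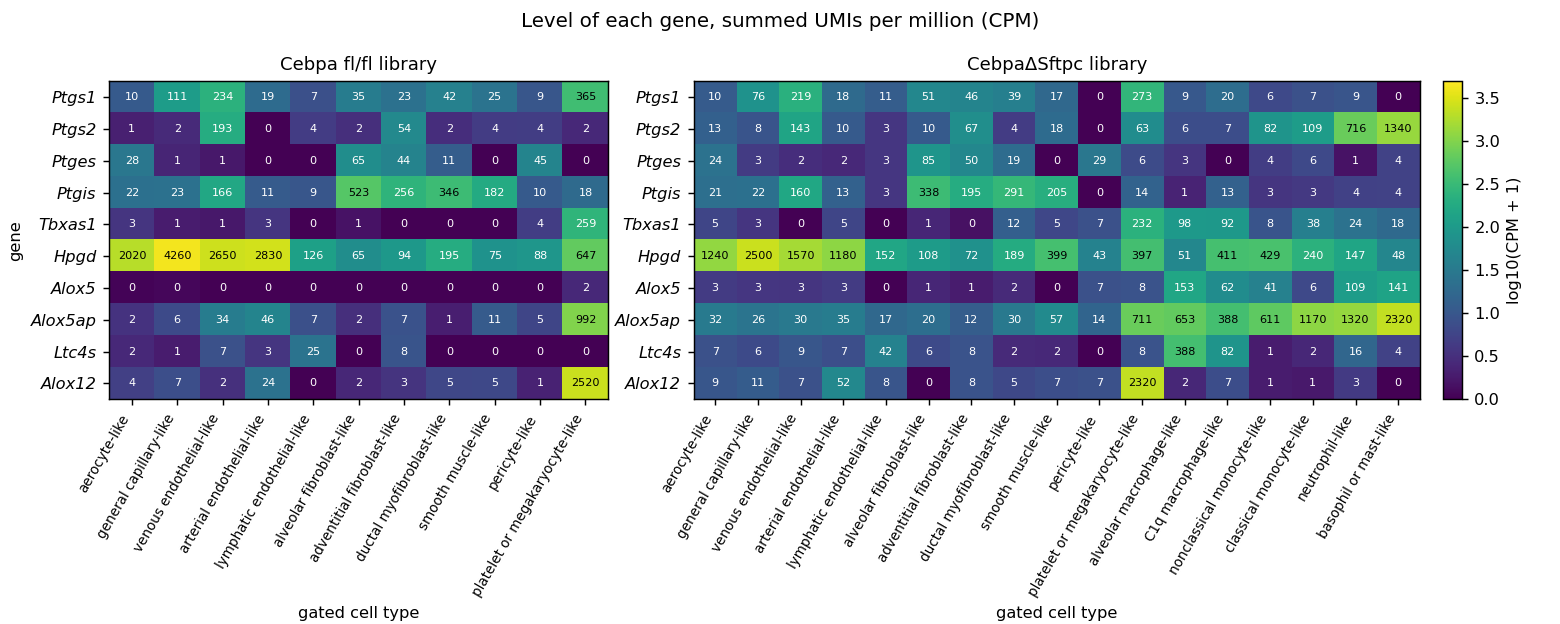
Level of the 10 genes in CPM (printed in each square, color on a log10(CPM + 1) scale) in gated types with at least 20 cells, with the Cebpa fl/fl library at left and the CebpaΔSftpc library at right. Hpgd filled the blood endothelial columns (4260 CPM in Cebpa fl/fl general capillary-like cells), Alox12 the platelet column (2520 and 2320), and Ptgis the fibroblast columns (523 in Cebpa fl/fl alveolar fibroblast-like cells). Alox5ap filled the myeloid columns, which only the CebpaΔSftpc library could fill. Alox5 was low in classical monocyte-like cells (5.57) there. Ltc4s was high in alveolar macrophage-like cells (388) and had 1 and 2 UMIs in nonclassical and classical monocyte-like cells.

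All 10 are protein-coding genes in GENCODE vM21 (GRCm38), and 8 of the 10 had an entry among the RefSeq promoters of GRCm38.p6. The 250 bases before the RefSeq start are shown for Ptgs2, whose promoter alone among the 8 holds the palindromic C/EBP motif, and for Hpgd, the gene with the most UMIs. Capitals mark TTGCGCAA, the C/EBP motif, and GGGCGG, the GC box, searched on both strands as was the TATA box TATAAA.
Ptgs2, chr1:150099781-150100030, plus strand: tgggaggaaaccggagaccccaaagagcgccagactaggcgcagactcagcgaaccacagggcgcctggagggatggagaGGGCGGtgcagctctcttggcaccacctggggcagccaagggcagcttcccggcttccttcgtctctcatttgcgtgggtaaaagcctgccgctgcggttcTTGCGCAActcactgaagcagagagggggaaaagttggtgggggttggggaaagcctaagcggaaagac
Hpgd, chr8:56294302-56294551, plus strand: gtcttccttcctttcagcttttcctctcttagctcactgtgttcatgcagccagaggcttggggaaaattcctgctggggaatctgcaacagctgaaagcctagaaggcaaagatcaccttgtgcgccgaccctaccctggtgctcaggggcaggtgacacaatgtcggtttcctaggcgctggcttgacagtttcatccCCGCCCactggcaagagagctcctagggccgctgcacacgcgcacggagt
The C/EBP motif of Ptgs2 began 69 bases before the start and occurs in 0.165% of 32817 promoters of that length, while the GC box occurs in 32.7% of them and in 5 of the 8 members' promoters. TATAAA occurs in 12.4% and, among the members, in Tbxas1. The motifs were chosen with the sequences seen, and a match describes letters and measures no binding. In AT2-like cells, the cells in which Cebpa was targeted, Ptgs2 stood at 64.5 CPM (59.0 to 70.3, 507 UMIs) in the Cebpa fl/fl and at 66.0 CPM (51.5 to 83.2, 71 UMIs) in the CebpaΔSftpc library, and the intervals overlapped. A Cebpa UMI was still found in 68.9% of these CebpaΔSftpc cells, against 90.0% of the Cebpa fl/fl ones. Any part of the motif in the Ptgs2 level was not tested.

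Ptgs1, the constitutive cyclooxygenase (ENSMUSG00000047250, chromosome 2, 36230426 to 36252272, plus strand), was highest in platelet or megakaryocyte-like cells among the 4 lineages. Its level there was 365 CPM (318 to 416, 222 UMIs) in the Cebpa fl/fl and 273 CPM (230 to 323, 139 UMIs) in the CebpaΔSftpc library, a log2 ratio of −0.42 (−0.73 to −0.10). Venous endothelial-like cells came next with 234 CPM (216 to 253) and 219 CPM (196 to 244), followed by general capillary-like cells with 111 CPM (106 to 115) and 75.8 CPM (71.3 to 80.5), whereas aerocyte-like cells, the other capillary cell of the alveolus, held 10.3 and 10.4 CPM. Within the endothelium Ptgs1 thus differed strongly between the 2 capillary types and veins, in both libraries and without overlap of the intervals. Among venous cells 60.6% and 50.8% held a Ptgs1 UMI, and 18.5% and 13.5% did after each cell was thinned to 1000 UMIs. The background for this share, taken from B cells, which have little Ptgs1, was 2.44% and 0.383% after thinning, at median depths of 5749 and 5671 UMIs for B cells and 5463 and 5338 for venous cells. By number of UMIs, endothelial cells held 67.8% and 69.7% of all Ptgs1 counts of the 2 libraries and platelets 3.98% and 4.43%.

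Ptgs2, the inducible cyclooxygenase (ENSMUSG00000032487, chromosome 1, 150100031 to 150108227, plus strand), was a venous gene within the endothelium. Venous endothelial-like cells held 193 CPM (177 to 211, 524 UMIs) in the Cebpa fl/fl and 143 CPM (125 to 164, 213 UMIs) in the CebpaΔSftpc library, a log2 ratio of −0.43 (−0.67 to −0.20). General capillary-like cells held 1.78 and 8.22 CPM, and adventitial fibroblast-like cells 54.0 CPM (47.8 to 60.8) and 66.9 CPM (56.5 to 78.7). The venous counts were uneven, with 19.3% and 30.5% of them in the 5 highest cells of each library and a UMI in 35.0% and 29.7% of cells, or 14.0% and 11.8% after thinning. Over all types the gene was highest in basophil or mast-like cells, with 2000 CPM (1680 to 2350) in 11 Cebpa fl/fl and 1340 CPM (1190 to 1500) in 36 CebpaΔSftpc cells, of which the 5 highest CebpaΔSftpc cells held 70.6% of the UMIs. CebpaΔSftpc neutrophil-like cells held 716 CPM (679 to 756, 1344 UMIs in 391 cells), with a UMI in 51.9% of cells and in 34.9% after thinning. B cells of that library, as background, gave 2.26% before and 0.766% after thinning, and none of the 42 Cebpa fl/fl B cells held a UMI. Classical monocyte-like cells stood at 109 CPM (91.5 to 129), nonclassical at 81.6 CPM (65.5 to 100) with 83.1% of the UMIs in 5 cells, and alveolar macrophage-like cells at 6.44 CPM. In the whole CebpaΔSftpc library 52.6% of the Ptgs2 UMIs lay in myeloid cells, against endothelial shares of 40.4% in the Cebpa fl/fl and 18.4% in the CebpaΔSftpc library. Neutrophil-like cells with 3 or more UMIs of the chemokines Ccl3 and Ccl4, a division chosen after the values were seen, held 753 CPM of Ptgs2 (670 to 843, 44 cells) and those without such a UMI held 762 CPM (713 to 813, 295 cells).

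Ptges, the inducible microsomal prostaglandin E synthase (ENSMUSG00000050737, chromosome 2, 30889471 to 30929863, minus strand), had its highest level in alveolar fibroblast-like cells in both libraries. Alveolar fibroblast-like cells held 65.2 CPM (54.2 to 77.9, 122 UMIs) in the Cebpa fl/fl and 84.9 CPM (64.5 to 110, 58 UMIs) in the CebpaΔSftpc library, with overlapping intervals. Adventitial fibroblast-like cells held 44.2 and 50.4 CPM and pericyte-like cells 45.2 CPM and, from 4 UMIs, 28.8 CPM. In the capillary bed Ptges ran opposite to Ptgs1: aerocyte-like cells held 28.2 CPM (25 to 31.7) and 23.7 CPM (20.7 to 27.0), while general capillary-like cells held 1.44 and 3.47 CPM. The aerocyte counts were spread over many cells, with no more than 4 UMIs in any cell of either library.

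Ptgis, prostacyclin synthase (ENSMUSG00000017969, chromosome 2, 167191805 to 167240604, minus strand), had its highest levels in the stroma. Alveolar fibroblast-like cells held 523 CPM (491 to 557, 978 UMIs) in the Cebpa fl/fl and 338 CPM (296 to 385, 231 UMIs) in the CebpaΔSftpc library, a log2 ratio of −0.63 (−0.84 to −0.42). The ratio turned to 1.39 when free RNA was subtracted, a step that removed 79.9% of the UMIs of these CebpaΔSftpc cells because 1 cell held 4362 of their 4541 surfactant UMIs. Ductal myofibroblast-like cells followed with 346 CPM (310 to 385) and 291 CPM (248 to 339), then adventitial fibroblast-like cells with 256 CPM (242 to 270) and 195 CPM (177 to 215) and smooth muscle-like cells with 182 CPM (148 to 221) and 205 CPM (170 to 244). Pericyte-like cells stood apart from the other stromal types with 8 UMIs (10.1 CPM) in 181 Cebpa fl/fl cells and none in 30 CebpaΔSftpc cells, where 3 UMIs would be 21.6 CPM and the upper end of the interval is 26.5 CPM. Within the endothelium Ptgis was again venous, at 166 CPM (151 to 182) and 160 CPM (140 to 182), against 21.1 to 22.9 CPM in both capillary types of both libraries. Of the alveolar fibroblast-like cells 76.7% and 63.2% held a UMI and, after thinning, 39.5% and 31.4%, where B cells gave 0 and 0.383%. The stroma held 62.7% of the Ptgis UMIs of the Cebpa fl/fl and 42.4% of those of the CebpaΔSftpc library, which had fewer stromal cells. By number, the stroma held 3225 and 1122 Ptgis UMIs and the endothelium 1516 and 1184.

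Tbxas1, thromboxane synthase (ENSMUSG00000029925, chromosome 6, 38875404 to 39084585, plus strand), was a gene of platelets and macrophages. Platelet or megakaryocyte-like cells held 259 CPM (221 to 303, 158 UMIs) and 232 CPM (192 to 278, 118 UMIs), a log2 ratio of −0.16 (−0.52 to 0.19), whose interval includes 0. CebpaΔSftpc alveolar macrophage-like cells held 98.2 CPM (88.4 to 109, 366 UMIs) and C1q macrophage-like cells 92.0 CPM (61.1 to 133), above classical monocyte-like cells with 38.2 CPM (28.1 to 50.6) and neutrophil-like cells with 23.5 CPM (17.0 to 31.5). The intervals of both macrophage types overlapped. Alveolar fibroblast-like cells, the background for this gene, had 1 UMI in each library.

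Hpgd, the enzyme that inactivates prostaglandins (ENSMUSG00000031613, chromosome 8, 56294585 to 56321043, plus strand), was the endothelial member, with endothelial cells holding 96.8% of its UMIs in the control and 91.4% in the CebpaΔSftpc library. In the Cebpa fl/fl library the order was general capillary-like at 4260 CPM (4230 to 4290), arterial at 2830 CPM (2660 to 3010), venous at 2650 CPM (2590 to 2720) and aerocyte-like at 2020 CPM (1990 to 2040), where only the arterial and venous intervals overlapped. In the CebpaΔSftpc library the order was general capillary-like at 2500 CPM (2470 to 2530), venous at 1570 CPM (1510 to 1640), aerocyte-like at 1240 CPM (1220 to 1270) and arterial at 1180 CPM (1090 to 1270), where the last pair overlapped. Lymphatic endothelial-like cells held only 126 CPM (98.1 to 158) and 152 CPM (114 to 198), with 73.2% and 64.8% of these UMIs in 5 cells, so blood and lymph vessels differed within both libraries.

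Hpgd was lower in the CebpaΔSftpc library in all 4 blood endothelial types. The log2 ratio was −0.77 (−0.79 to −0.75) in general capillary-like, −0.76 (−0.82 to −0.69) in venous, −0.70 (−0.73 to −0.66) in aerocyte-like and −1.27 (−1.41 to −1.13) in arterial cells, and 0.27 in lymphatic cells with an interval that includes 0. Among the genes with at least 50 UMIs in the type, 2.08%, 2.3%, 2.52% and 0.6% had a lower ratio than Hpgd in these 4 types in that order, and 75.1% in lymphatic cells. General capillary-like cells held a Hpgd UMI in 96.8% and 89.6% of cases, and in 90.8% and 74.8% after thinning, against 2.44% and 3.83% of thinned B cells. Depth differed most in aerocyte-like cells, with medians of 6379 and 2428 UMIs, and among those with at least 3000 UMIs the ratio was −0.64. Relative to the 7 lineage markers of endothelium, Hpgd gave 28.0 UMIs per 100 marker UMIs (27.8 to 28.2) in Cebpa fl/fl and 19.2 (19.0 to 19.4) in CebpaΔSftpc general capillary-like cells. Slco2a1, the transporter that carries prostaglandins into cells ahead of this enzyme, had nearly the same level in both libraries in capillary cells, with 976 and 942 CPM in general capillary-like cells (log2 ratio −0.05, −0.08 to −0.02) and 1010 and 1120 CPM in aerocyte-like cells (0.16, 0.12 to 0.20). What sets the Hpgd difference, be it the genotype, the mice pooled or the handling of a library, cannot be told apart with 1 library each.

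**Figure D2:**
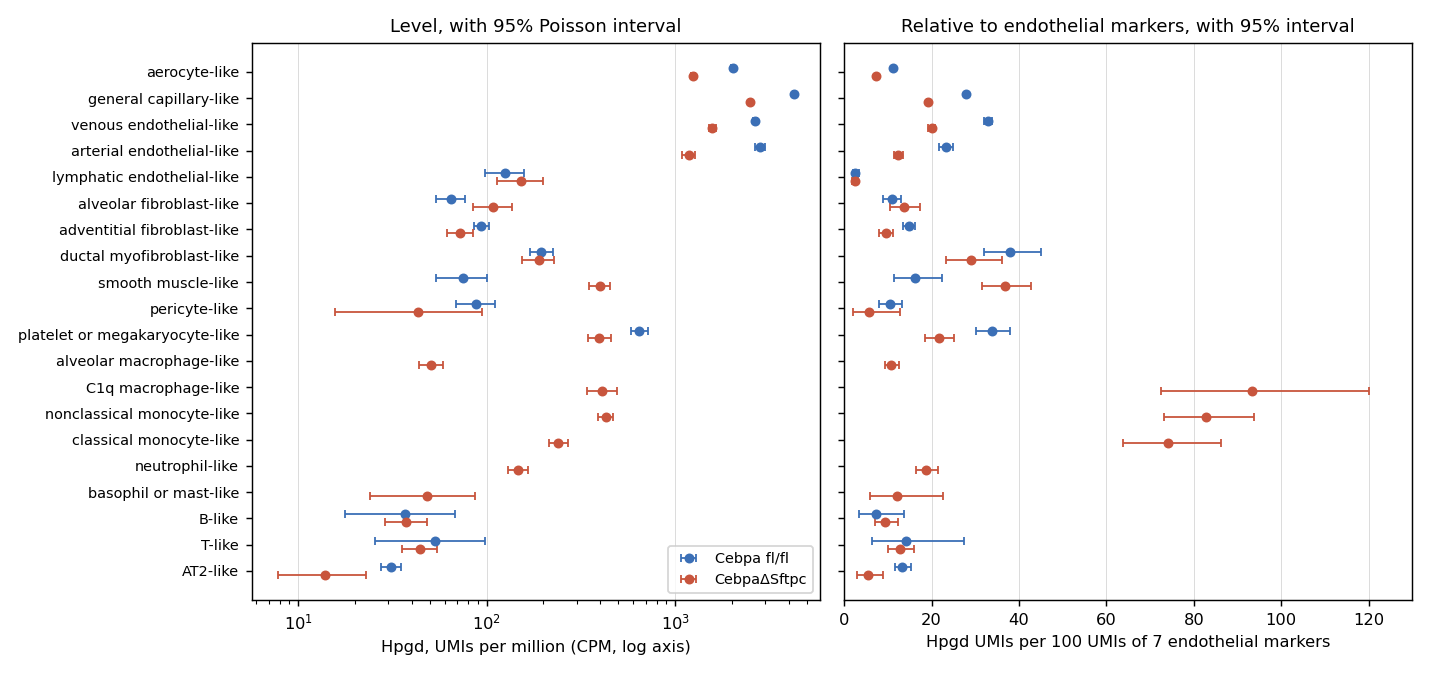
Hpgd by gated type, with the Cebpa fl/fl library in blue and the CebpaΔSftpc library in red, as CPM on a log axis with 95% Poisson intervals (left) and as UMIs per 100 UMIs of the 7 endothelial lineage markers with 95% binomial intervals (right). In the 4 blood endothelial types the red points lie left of the blue ones in both panels, and monocyte-like and C1q macrophage-like cells stand far right in the right panel, at 74.2 to 93.3.

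Outside the endothelium Hpgd counts were small but not uniform. Cebpa fl/fl platelet or megakaryocyte-like cells held 647 CPM (585 to 714) and those of the CebpaΔSftpc library 397 CPM (344 to 456), which came to 33.9 and 21.6 UMIs per 100 endothelial marker UMIs in the same cells, beside 28.0 and 19.2 in general capillary-like cells. In CebpaΔSftpc monocytes and C1q macrophages that ratio was several times higher. Nonclassical monocyte-like cells held 429 CPM (391 to 470) and 82.8 per 100 (73.1 to 93.8), C1q macrophage-like cells 411 CPM (342 to 489) and 93.3 per 100 (72.5 to 120), and classical monocyte-like cells 240 CPM (214 to 269) and 74.2 per 100 (63.7 to 86.3). Alveolar macrophage-like cells held 50.7 CPM and 10.8 per 100, and B cells 37.5 CPM and 9.44 per 100. In the Cebpa fl/fl library 13 nonclassical monocyte-like cells held 276 CPM (185 to 397) and 8 classical ones 161 CPM (90.1 to 266), where 12 of the 15 UMIs came from 1 cell. Ductal myofibroblast-like cells held 195 CPM (169 to 225) and 189 CPM (155 to 228), the highest stromal level of the Cebpa fl/fl library. In smooth muscle-like cells Hpgd went from 74.9 CPM (42 UMIs) to 399 CPM (238 UMIs), but 113 of these 238 UMIs came from 1 cell. The log2 ratio of 2.42 became −0.16 when the gate asked for 4 times as many UMIs of the type's own lists as of any other. Smooth muscle-like cells without an endothelial marker UMI held 152 CPM (9 UMIs, 15 cells) in the Cebpa fl/fl and 413 CPM (1 UMI, 2 cells) in the CebpaΔSftpc library. Those with 1 or more held 65.8 CPM (71 cells) and 399 CPM (237 UMIs, 79 cells).

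Alox5, 5-lipoxygenase (ENSMUSG00000025701, chromosome 6, 116410077 to 116461178, minus strand), was nearly absent from the Cebpa fl/fl library, with 29 UMIs in all, of which 51.7% lay in its 42 myeloid cells. In the CebpaΔSftpc library it had 1276 UMIs, of which 71.6% lay in myeloid cells. Alveolar macrophage-like cells held 153 CPM (141 to 166, 570 UMIs), basophil or mast-like cells 141 CPM (96.5 to 199), neutrophil-like cells 109 CPM (94.8 to 125), C1q macrophage-like cells 62.4 CPM (37.6 to 97.5) and nonclassical monocyte-like cells 41.3 CPM (30.1 to 55.2). Classical monocyte-like cells, at 5.57 CPM (2.24 to 11.5), lay below nonclassical ones without overlap. Each neighbouring pair of that order overlapped in its intervals, neutrophil-like and C1q macrophage-like cells only narrowly. In alveolar fibroblast-like cells, the background, 0 and 1 UMI were found.

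Alox5ap, which encodes FLAP (ENSMUSG00000060063, chromosome 5, 149264767 to 149288153, plus strand), was found far more widely than Alox5. Basophil or mast-like cells were highest, with 2170 CPM (1840 to 2540) in the Cebpa fl/fl and 2320 CPM (2120 to 2520) in the CebpaΔSftpc library and a UMI in every one of the 36 CebpaΔSftpc cells. Neutrophil-like cells held 1320 CPM (1270 to 1370) and classical monocyte-like cells 1170 CPM (1110 to 1230), although the latter had 7 UMIs of Alox5. Alveolar macrophage-like, nonclassical monocyte-like and C1q macrophage-like cells held 653 CPM (628 to 680), 611 CPM (565 to 659) and 388 CPM (321 to 464). The Cebpa fl/fl library gave 1350 CPM (1130 to 1610) from 8 classical and 534 CPM (403 to 693) from 13 nonclassical monocyte-like cells, and both intervals overlapped those of the other library.

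Platelet or megakaryocyte-like cells also held Alox5ap, at 992 CPM (914 to 1070, 604 UMIs) and 711 CPM (640 to 789, 362 UMIs), a log2 ratio of −0.48 (−0.67 to −0.29), while Alox5 had 1 and 4 UMIs there. The 604 Alox5ap UMIs of the Cebpa fl/fl platelets stood beside 76 UMIs of the 9 myeloid lineage markers, which is 795 per 100, and those of the CebpaΔSftpc platelets gave 139 per 100. Neutrophil-like cells had 8.58 and classical monocyte-like cells 22.3 per 100 by the same measure. Among the endothelial cells of the Cebpa fl/fl library, which held few myeloid cells, venous and arterial cells had 34.3 CPM (27.7 to 42.0) and 45.6 CPM (26.5 to 73.0) of Alox5ap, general capillary-like cells 5.69 CPM and aerocyte-like cells 2.50 CPM. Alveolar fibroblast-like cells, as background, had 2.14 CPM from 4 UMIs.

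Ltc4s, leukotriene C4 synthase (ENSMUSG00000020377, chromosome 11, 50236461 to 50238616, minus strand), was highest in alveolar macrophage-like cells in the CebpaΔSftpc library. Myeloid cells held 1 of its UMIs in the Cebpa fl/fl and 1582 in the CebpaΔSftpc library. Endothelial cells held 97 and 296, and stromal cells 42 and 24. CebpaΔSftpc alveolar macrophage-like cells held 388 CPM (369 to 409, 1447 UMIs), with a UMI in 79.1% of cells and in 30.6% after thinning, and C1q macrophage-like cells held 82.1 CPM (53.1 to 121), with 76.0% of the UMIs in 5 cells. Neutrophil-like cells held 15.5 CPM (10.4 to 22.2), basophil or mast-like cells had 1 UMI in 36 cells, and nonclassical and classical monocyte-like cells 1 and 2 UMIs. Lymphatic endothelial-like cells held 24.8 CPM (13.5 to 41.5, 14 UMIs) and 42.2 CPM (23.6 to 69.6, 15 UMIs), the highest of the types with at least 20 cells in both libraries. Alveolar fibroblast-like cells, as background, had 0 and 4 UMIs, the latter in 3.51% of cells.

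**Figure D3:**
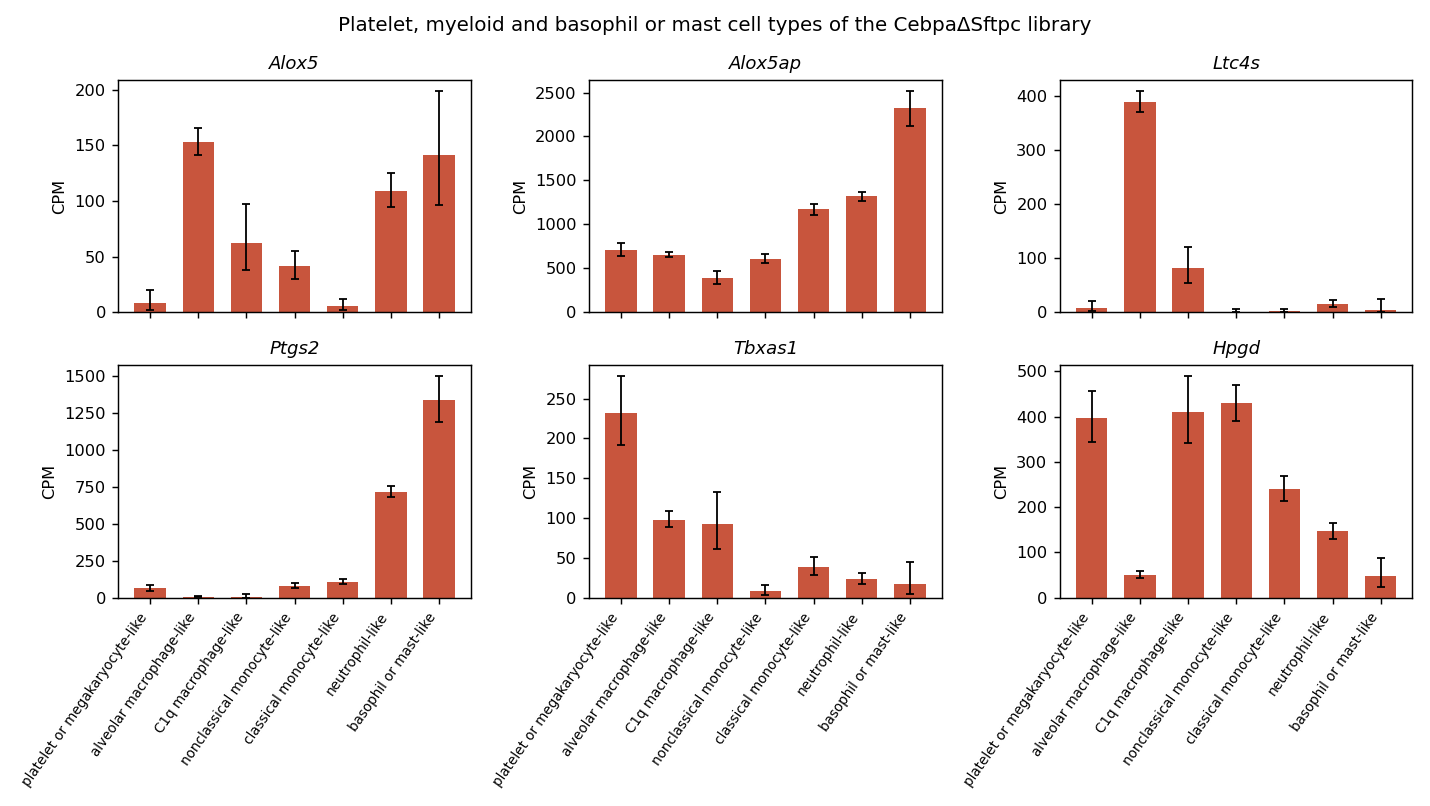
Bars give the CPM of 6 genes in platelet, myeloid and basophil or mast-like cells of the CebpaΔSftpc library, with 95% Poisson intervals, each panel on its own axis from 0. Alveolar macrophage-like cells combined Alox5 (153 CPM), Alox5ap (653) and Ltc4s (388), neutrophil-like cells Alox5 (109), Alox5ap (1320) and Ptgs2 (716), and platelets Alox5ap (711) and Tbxas1 (232), with 4 UMIs of Alox5.

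Alox12, the platelet 12-lipoxygenase (ENSMUSG00000000320, chromosome 11, 70241457 to 70255353, minus strand), held 2520 CPM (2390 to 2640, 1532 UMIs) in Cebpa fl/fl and 2320 CPM (2190 to 2460, 1183 UMIs) in CebpaΔSftpc platelet or megakaryocyte-like cells. The log2 ratio of −0.11 (−0.22 to −0.003) was close to 0, and it had the other sign, at most 0.37, under 3 of its alternatives. Of these cells 84.9% and 87.3% held a UMI, and 90.9% and 85.4% did after thinning, which left out shallow droplets and kept 232 and 198 cells. Alveolar fibroblast-like cells, as background, gave none after thinning. Platelets held 1532 of the 2042 and 1183 of the 1943 Alox12 UMIs of the libraries. Per 100 UMIs of the 9 platelet markers Alox12 gave 6.61 (6.28 to 6.97) and 6.82 (6.43 to 7.24) in platelets, and 7.80 and 9.17 in aerocyte-like and 10.0 and 11.9 in general capillary-like cells. Arterial endothelial-like cells lay above all of these with 33.3 (13.8 to 73.0) and 91.2 (54.2 to 153) per 100, from 9 UMIs (24.1 CPM) and 31 UMIs (51.7 CPM), although 74.2% of the 31 came from 5 cells.

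The libraries were then compared for every member in the 11 types with at least 20 cells in each, among genes with at least 50 UMIs in the type, and a ratio of 2-fold or more in either direction was counted. In general capillary-like cells 9 of the 10 members had enough UMIs, and 5 lay past 2-fold (Ptgs2, Ptges, Tbxas1, Alox5ap and Ltc4s, all higher in the CebpaΔSftpc library), where 7.26% of 12532 genes did. In aerocyte-like cells 9 had enough UMIs and 4 lay past it (Ptgs2, Alox5ap, Alox12 and Ltc4s, all higher), against 5.51% of all genes. None of 5 members did so in venous cells (background 2.1%), 1 of 1 in arterial cells (Hpgd, lower, 4.57%) and none of 1 in lymphatic cells (3.71%). In the stroma the counts were none of 4 in alveolar fibroblast-like cells (3.27%), 1 of 7 in adventitial fibroblast-like cells (Ptgs1, higher, 2.85%), none of 3 in ductal myofibroblast-like cells (3.97%), 1 of 2 in smooth muscle-like cells (Hpgd, higher, 4.87%) and 1 of 1 in pericyte-like cells (Hpgd, lower, 7.0%). The pericyte ratio of −1.03 rests on 6 CebpaΔSftpc UMIs, and its interval (−2.52 to 0.17) includes 0. In platelets none of 5 did so (7.06%). Ptgs2 had 1 and 32 UMIs in platelets (1.64 and 62.9 CPM), too few to be counted. The members that passed the filter only through 1 library had to differ, so these counts describe the list and test nothing. The median log2 ratio over all genes lay between −0.09 and 0.04 in every type.

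The higher levels in CebpaΔSftpc capillary cells came from few UMIs, and the summed myeloid markers were also higher in these types. Alox5ap went from 5.69 to 25.7 CPM in general capillary-like cells (115 and 363 UMIs, log2 ratio 2.18, 1.87 to 2.49) and from 2.50 to 31.7 CPM in aerocyte-like cells (25 and 305 UMIs, 3.67, 3.08 to 4.32). In those cells the summed level of S100a8 and S100a9, genes of neutrophils, went from 5.39 to 578 CPM and from 5.2 to 518 CPM. The 9 myeloid lineage markers, all detected in each library, went from 11.7 to 172 CPM and from 16.4 to 183 CPM. Per 100 UMIs of these 9 markers Alox5ap gave 48.7 and 15.0 in general capillary-like and 15.2 and 17.3 in aerocyte-like cells. As background, CebpaΔSftpc B cells, T cells and adventitial fibroblast-like cells held 10.3 CPM (5.99 to 16.5), 7.22 CPM (3.95 to 12.1) and 11.5 CPM (7.42 to 16.9) of Alox5ap. Alveolar fibroblast-like cells of that library held 20.5 CPM (11.2 to 34.4, 14 UMIs) and ductal myofibroblast-like cells 30.0 CPM (17.5 to 48.0, 17 UMIs). Smooth muscle-like cells held 57.1 CPM (39.5 to 79.7, 34 UMIs). The Cebpa fl/fl counts of these 3 stromal types were 4, 1 and 6 UMIs, so higher levels were not limited to capillary cells. Without the cells that held a platelet or myeloid marker UMI the log2 ratio of Alox5ap was 1.77 in general capillary-like and 4.41 in aerocyte-like cells, and with free RNA subtracted it was −3.65 in general capillary-like cells, with the CebpaΔSftpc count of 0 set to 3. Ptgs2 went from 1.10 to 12.7 CPM in aerocyte-like cells (11 and 122 UMIs, log2 ratio 3.53), and the ratio was 1.99 without the cells that held a platelet or myeloid marker UMI. Subtraction of free RNA left no UMI of Alox5ap or Ptgs2 in the aerocyte-like cells of either library, and so no ratio. This step takes away the summed counts of all kept cells of a library, scaled to the surfactant UMIs of the type. It used no empty droplets, so RNA of the type itself is also taken away. Of the surfactant UMIs 5 cells held 53.6% in Cebpa fl/fl and 68.3% in CebpaΔSftpc aerocyte-like cells. The step removed 16.5% and 27.0% of the UMIs of these cells, and 11.1% and 25.3% of those of general capillary-like cells. Ltc4s went from 0.94 to 5.74 CPM in general capillary-like cells (19 and 81 UMIs). Ltc4s gave 18.8 UMIs per 100 UMIs of the alveolar macrophage markers in CebpaΔSftpc general capillary-like cells (14.7 to 23.9) and 13.1 (12.4 to 13.8) in alveolar macrophage-like cells. The part of carried-over RNA in these levels was not tested.

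**Figure D4:**
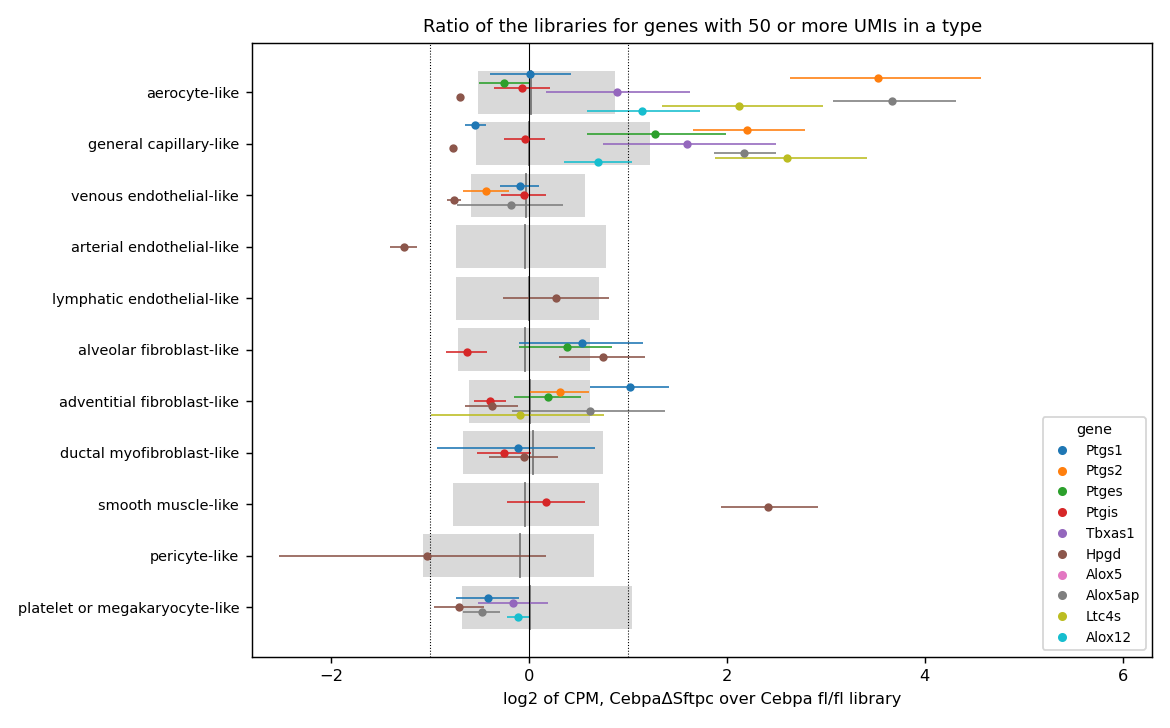
Log2 ratio of CPM, CebpaΔSftpc over Cebpa fl/fl library, for each member with at least 50 UMIs in a type (points, with exact 95% binomial intervals), over a gray band from the 5th to the 95th percentile of all genes in the type and a gray line at their median. Hpgd lies left of the band in the 4 blood endothelial types (−0.70 to −1.27) and in platelets (−0.705). It lies right of the band in alveolar fibroblast-like (0.744) and smooth muscle-like cells (2.415). Ptgs2, Tbxas1, Alox5ap and Ltc4s lie right of the band in the 2 capillary types. Inside the band lie Ptgs1 and Alox5ap in platelets, Ptgs2 in venous cells and Ptgis in alveolar fibroblast-like cells, although their intervals exclude 0.

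UMIs of several members were found in the same cells. Among 454 Cebpa fl/fl venous endothelial-like cells 27.1% held both cyclooxygenases, 34.8% held Ptgs1 with Ptgis and 57.7% held Ptgs1 with Hpgd. Hpgd had 7190 UMIs in these 454 cells, and this last share lies close to that of Ptgs1 alone. Of the Ptgs2-positive venous cells 63.5% held Ptgis in the Cebpa fl/fl library, where 47.8% of all venous cells did. In Cebpa fl/fl alveolar fibroblast-like cells 88.3% of the cells with Ptges held Ptgis, where 76.7% of all these cells did. In CebpaΔSftpc alveolar macrophage-like cells 59.3% held Alox5 with Alox5ap and 57.1% Alox5 with Ltc4s, and 91.1% of the Alox5-positive cells held Ltc4s, where 79.1% of all did. In neutrophil-like cells 30.7% held Alox5 with Alox5ap and 19.7% Ptgs2 with Alox5. In platelets Alox5ap and Alox12 were found together in 56.9% and 59.6% of cells. Cells with more UMIs show more genes of any kind, so these shares rise with depth.

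**Figure D5:**
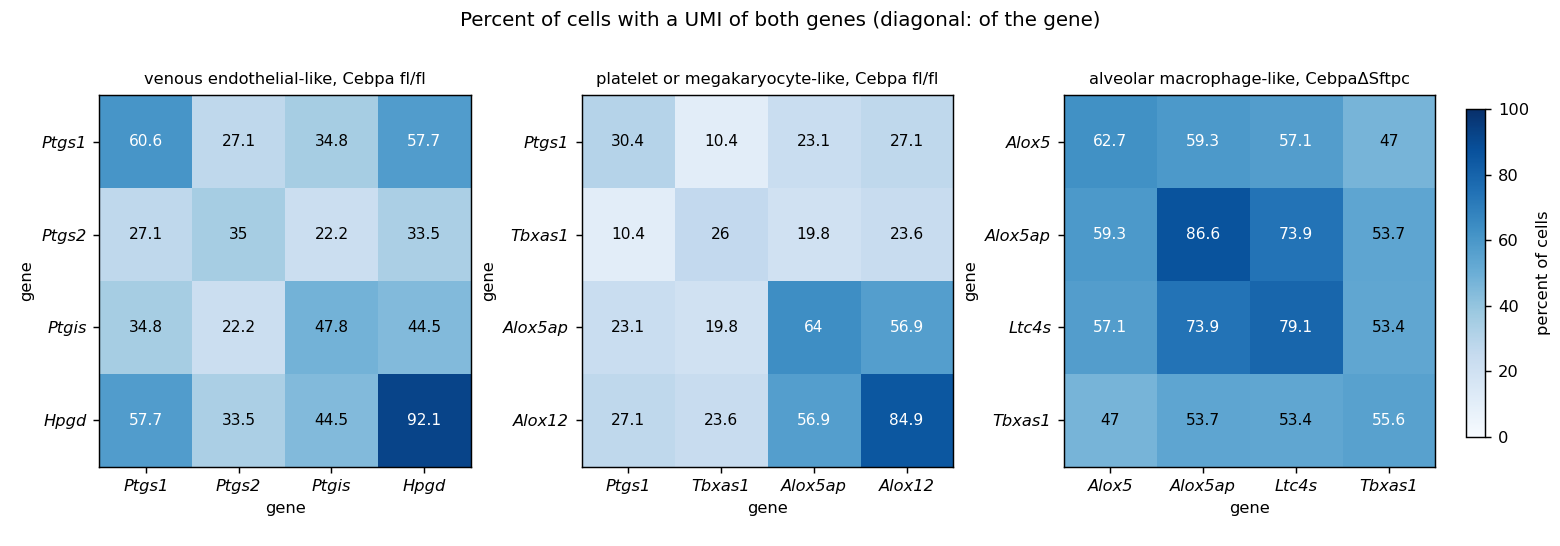
Percent of cells with at least 1 UMI of both genes of a pair (diagonal, of the gene itself) in Cebpa fl/fl venous endothelial-like cells (454), Cebpa fl/fl platelet or megakaryocyte-like cells (450) and CebpaΔSftpc alveolar macrophage-like cells (268). In alveolar macrophage-like cells every pair among the 3 leukotriene genes is found in at least 57.1% of cells. In platelets Ptgs1 and Tbxas1 share 10.4% of cells. Median depths were 16447 UMIs in these alveolar macrophage-like cells and 1017 UMIs in these platelets, so the shares cannot be compared between them. After thinning to 1000 UMIs, Alox5 was found in 14.3% of the alveolar macrophage-like cells and Tbxas1 in 30.2% of the platelets.

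Of 53 further genes of these pathways that were matched to the files, those that free arachidonate, complete synthesis, carry or break down the products and receive them, the ones named here led their list in a lineage. Pla2g4a, cytosolic phospholipase A2, held 119 and 118 CPM in venous cells, 86.3 and 77.9 CPM in adventitial fibroblast-like cells and 83.7 and 98.3 CPM in platelets, types in which Ptgs1 or Ptgs2 was also found. Pla2g7, listed with the genes that free arachidonate although it hydrolyses platelet-activating factor, held 738 CPM in CebpaΔSftpc neutrophil-like cells. Among other synthases Ptges3 and Akr1b3 were broad, at 198 and 220 CPM and at 94.5 and 86.9 CPM in aerocyte-like cells, while Hpgds, the prostaglandin D synthase of blood-derived cells, held 151 CPM in C1q macrophage-like cells. Cbr1, a carbonyl reductase, held 95.2 and 62.9 CPM in alveolar fibroblast-like cells (log2 ratio −0.60, −1.11 to −0.11). Among breakdown genes Dpep1, a dipeptidase that acts on leukotriene D4, was stromal, with 790 and 673 CPM in alveolar fibroblast-like cells, and Cyp4f18, which acts on leukotriene B4, held 400 CPM in neutrophil-like and 701 CPM in basophil or mast-like cells of the CebpaΔSftpc library.

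The receptors fell to different cells. Tbxa2r, the thromboxane receptor, held 67.4 and 65.9 CPM in aerocyte-like cells and similar levels in smooth muscle-like cells (73.1 and 57.1 CPM, 41 and 34 UMIs). In lymphatic endothelial-like cells it held 38.9 and 73.1 CPM (22 and 26 UMIs). Ptgfr, the prostaglandin F receptor, held 118 and 79.3 CPM in adventitial fibroblast-like cells (log2 ratio −0.58, −0.83 to −0.33) and Ptger2, a prostaglandin E2 receptor, 79.8 and 74.0 CPM in ductal myofibroblast-like cells. Cysltr1, a receptor for cysteinyl leukotrienes, held 111 CPM (88 UMIs) and 50.4 CPM (7 UMIs) in pericyte-like cells, and Cysltr2 held 126 and 72.7 CPM in platelets (−0.80, −1.40 to −0.21) and 7.27 and 1.49 CPM in general capillary-like cells (147 and 21 UMIs, −2.29, −3.02 to −1.62). Ptgir, the prostacyclin receptor, held 55.8 and 45.2 CPM in platelets. Among CebpaΔSftpc myeloid cells Fpr2, a receptor for lipoxin and formyl peptides, held 198 CPM in neutrophil-like cells and Ltb4r1, the leukotriene B4 receptor, 77.9 CPM in classical monocyte-like cells. Across the types the lists of breakdown and transport genes and of receptors had medians of 0.26 and 0.06 on the log2 scale in general capillary-like cells, over 10 of 13 and 4 of 15 genes with enough UMIs, of which 1 (Cyp4f18, higher) and 2 (Ptger4, higher, and Cysltr2, lower) lay past 2-fold. The share over all genes was 7.26% there. As with the members, companions that passed the filter only through 1 library had to differ. Examples are Cyp4f18 (6 and 107 UMIs) and Ptger4 (6 and 52 UMIs) in these cells. The counts of the companion lists therefore describe them and test nothing. In aerocyte-like cells the counts were 2 of 10 (Abcc4 and Cyp4f18, higher) and 1 of 3 (Cysltr2, lower), beside 5.51% of all genes. Cyp4f18, the gene at 400 CPM in neutrophil-like cells, went from 0.297 to 7.59 CPM in general capillary-like and from 0.40 to 5.71 CPM in aerocyte-like cells, types in which the myeloid markers were higher as well, and their part in it was not tested. In venous cells none of 6 and 1 of 1 (Cysltr1, higher) lay past 2-fold (2.1% of all genes), in adventitial fibroblast-like cells 1 of 10 (Ephx2, lower) and none of 5 (2.85%), and in platelets none of 1 and none of 2 (7.06%). In arterial and lymphatic cells none of 1 breakdown or transport gene did so. Slco2a1 was the breakdown or transport gene past 2-fold, higher in the CebpaΔSftpc library, in alveolar fibroblast-like (19.2 and 58.5 CPM, 1.60, 0.92 to 2.30), ductal myofibroblast-like (40.9 and 82.8 CPM, 1.02, 0.38 to 1.66) and smooth muscle-like cells (21.4 and 87.3 CPM, 2.03, 1.10 to 3.07), out of 4, 2 and 1 genes. The 7 endothelial markers, all detected, went from 596 to 795, from 513 to 648 and from 464 to 1090 CPM in these 3 types, and their part in the Slco2a1 levels was not tested. None of the 2, 1 and 1 receptors with enough UMIs lay past 2-fold there. In pericyte-like cells 1 of 1 receptor (Cysltr1, lower, −1.13, −2.49 to −0.03) and 1 of 2 other synthases (Akr1b3, lower, from 2 CebpaΔSftpc UMIs) did so. In the remaining 10 types none of the other synthases lay past 2-fold, among 9 with enough UMIs in general capillary-like and 7 in aerocyte-like cells. In the list drawn up for arachidonate release, Pla2g7, which acts on platelet-activating factor, was higher past 2-fold in both capillary types. Pla2g1b was lower past 2-fold in both, out of 6 listed genes in general capillary-like and 3 in aerocyte-like cells. The shares over all genes were 7.26% and 5.51%. Pla2g7, at 738 CPM in CebpaΔSftpc neutrophil-like cells, went from 0.247 to 7.73 CPM (5 and 109 UMIs) in general capillary-like cells. In aerocyte-like cells it went from 1.20 to 5.82 CPM (12 and 56 UMIs). Pla2g1b stood at 271 and 207 CPM in AT2-like cells. It went from 4.35 to 1.28 CPM (88 and 18 UMIs) in general capillary-like and from 6.19 to 1.04 CPM (62 and 10 UMIs) in aerocyte-like cells. The part of RNA from neutrophils or AT2 cells in these levels was not tested.

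For each member the genes with the most similar levels were sought among 9501 genes, by Pearson's r of log2(CPM + 10) over 40 points, each a gated type of 1 library, with gate markers left out. The points share libraries and depths, so r is a description. Hpgd was most like Ehd4 (0.94), Tspan7 (0.93) and Bvht (0.92), and Ptgis most like Mgp (0.96) and the elastic fibre gene Eln (0.92). Ly6g6f (0.95) and Cxcl5 (0.95) were among the genes most like Alox12, and Tbxas1 was most like the platelet receptor P2ry12 (0.91), I830077J02Rik (0.90) and Taldo1 (0.85). Alox5 was most like C5ar1 (0.94), Csf2rb (0.93) and Cxcl2 (0.89), Alox5ap like Taldo1 (0.89), Fcer1g (0.87) and F630028O10Rik (0.87), and Ltc4s like the macrophage mannose receptor Mrc1 (0.86), Mcoln3 (0.84) and Olr1 (0.83). Ptges was most like Phlda1 (0.84), Scarf2 (0.79) and Lrp4 (0.78), Ptgs1 like Rab27b (0.79), Plxna4 (0.72) and Rab13 (0.70), and Ptgs2 like Padi4 (0.71), Nlrp3 (0.71) and Tarm1 (0.70). For Alox5, Ptgs2 and Ltc4s the likeness to several of these genes was found in the CebpaΔSftpc library only. In the Cebpa fl/fl library r ranged from −0.16 to 0.28 for the genes other than Mrc1 that gave a value. No myeloid type and no basophil or mast-like type of the Cebpa fl/fl library had enough cells to be a point. The lower r in that library therefore cannot be read as a difference between the genotypes.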

How the data were processed

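Whole-lung cells of 3 pooled mice per genotype were profiled with 10x 3′ single-cell RNA sequencing, as 1 Cebpa fl/fl and 1 CebpaΔSftpc library. The values are UMI counts per gene and barcode that the authors deposited as filtered matrices, made on mm10 with Cell Ranger (version 6.1.1 in the submitters' processing notes and 5.0.0 in the file header).

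Barcodes with at least 200 genes and 20% or fewer mitochondrial UMIs were kept. A cell got 1 of 9 lineages from at least 3 UMIs of at least 2 of its markers, which had to be at least 2 times those of any other lineage, and a type from at least 2 UMIs of that type's list by the same dominance. Cells with over 10% hemoglobin UMIs kept no lineage other than erythroid. Counts were summed per library and type and scaled to CPM with exact Poisson intervals. Ratios between libraries carry exact binomial intervals given both totals, with counts under the floor of 3 set to 3, and need 20 cells in each library. Shares of cells with a UMI were taken before and after thinning to 1000 UMIs. With 1 library per genotype no test was run, and past 2-fold describes size among genes with at least 50 UMIs. Doublets were kept, and leaving out the 8% with the highest Scrublet scores was an alternative. Another, called free RNA subtraction, took away the summed counts of all kept cells of a library, scaled to the surfactant UMIs of the type. No empty droplets were used for it. The log2 ratio and its binomial interval were tested on simulated gene totals of general capillary-like cells, drawn with counting error only.

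The members, marker lists and 53 companion genes were chosen with earlier results of these data known, and 2 listed companions were not found. Companions are named by rule as the highest 3 genes of each list in each lineage, among those with at least 50 UMIs in a type. Some of the genes most like a member are not reported here. No columns of the authors' own comparisons were used. Python 3.11.15, numpy 2.4.6, scipy 1.17.1, pandas 2.3.3, scanpy 1.11.5 and matplotlib 3.10.9 were used.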

Additional observations from a re-analysis of the deposited data

Results flagged for a closer look

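Several members had ratios of opposite sign in different types, given here as log2 of CebpaΔSftpc over Cebpa fl/fl, and the difference between the types was not tested. Hpgd had 2.415 in smooth muscle-like and −1.267 in arterial endothelial-like cells, with 113 of the 238 smooth muscle UMIs of the CebpaΔSftpc library in 1 cell. Ptgs1 had 1.016 in adventitial fibroblast-like cells, where 35.0% of the CebpaΔSftpc UMIs lay in 5 cells, and −0.544 in general capillary-like cells. Ptgs2 had 3.527 in aerocyte-like and −0.433 in venous endothelial-like cells. Alox5ap had 3.665 in aerocyte-like and −0.479 in platelet or megakaryocyte-like cells. With free RNA subtracted, a step that removed 16.5% and 27.0% of their UMIs, no UMI of Ptgs2 or Alox5ap was left in aerocyte-like cells. Alox12 had 1.144 in aerocyte-like and −0.114 in platelet or megakaryocyte-like cells. The interval of this platelet ratio reached −0.003, and the ratio had the other sign under some alternatives, at most 0.374.

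Cells to which no lineage was given, 620 from Cebpa fl/fl and 2122 from CebpaΔSftpc lungs, enter no comparison, and several members were higher there than in the cells with a lineage. Hpgd was lower there, at 837 against 2190 CPM in the Cebpa fl/fl and 606 against 1210 CPM in the CebpaΔSftpc library, and so was Ptgs2 in the former, at 18.2 against 25.7 CPM. Ptgs1 was nearly level in both, at 80.3 against 81.1 CPM in the Cebpa fl/fl library. In the Cebpa fl/fl library these cells held 19.8 CPM of Ptges, 95.1 of Ptgis, 7.85 of Tbxas1, 31.7 of Alox5ap, 61.5 of Alox12 and 7.85 of Ltc4s, against 13.9, 73.7, 3.40, 22.0, 28.1 and 2.35 with a lineage. In the CebpaΔSftpc library they held 48.9 CPM of Ptgs1, 66.9 of Ptgs2, 11.7 of Ptges, 49.3 of Ptgis, 21.0 of Tbxas1, 31.7 of Alox5, 264 of Alox5ap, 47.5 of Alox12 and 50.5 of Ltc4s. The corresponding levels with a lineage were 48.6, 52.4, 11.2, 40.3, 14.6, 18.7, 188, 28.5 and 32.7 CPM. Their median depths were 1815 and 1439 UMIs.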

How the results depend on the processing

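Counting intervals do not cover differences between mice or libraries, depth differed most in aerocyte-like cells, and myeloid levels rest on 1 library. No paired analysis was possible because each genotype has 1 library. Of the main ratios under alternatives 105 values stayed within their interval, 25 moved and 5 reversed, and of the other ratios 103 stayed, 21 moved and 4 reversed. In 11 further cases both libraries had at most 3 UMIs and no ratio is given, 7 of them for Alox5 in platelets. The Hpgd ratio kept its direction in the 4 blood endothelial types under all alternatives run, from −0.90 to −0.62 in general capillary-like, −0.81 to −0.60 in aerocyte-like, −0.88 to −0.66 in venous and −1.53 to −1.16 in arterial cells.

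With lists dominant 4 times, Hpgd was −0.716 in general capillary-like, −0.875 in venous, −1.528 in arterial and −0.158 in smooth muscle-like cells, and Alox12 was 0.035 in platelets. With at least 3000 UMIs per cell, Hpgd was −0.724 in general capillary-like and −0.643 in aerocyte-like cells, and in the 25 and 39 platelets left Tbxas1 was 0.341 and Alox5ap −0.187. Thinned to 1000 UMIs, Hpgd was −0.899, −0.812 and −1.451 in general capillary-like, aerocyte-like and arterial cells and Tbxas1 −0.652 in platelets. As a mean over cells Hpgd was −0.900 in general capillary-like and −0.798 in aerocyte-like cells, and −0.787 in the former without likely doublets.

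With free RNA subtracted, Hpgd was −0.619 in general capillary-like and −0.657 in aerocyte-like cells, Ptges 2.38 and Ptgis 1.393 in alveolar fibroblast-like cells, Ptgs1 0.004, Tbxas1 0.294, Alox5ap −0.154 and Alox12 0.374 in platelets, Alox5ap −3.651 and Slco2a1 0.058 in general capillary-like and Ltc4s −1.818 in aerocyte-like cells. By its construction this step takes away the summed counts of all kept cells in proportion to surfactant UMIs. It removed 36.7% of platelet UMIs in the CebpaΔSftpc and 10.8% in the Cebpa fl/fl library. Leaving out cells with UMIs of other lineages, or barcodes in both libraries, was chosen after seeing the data. Under the former Hpgd was −0.803, −0.597 and −0.659 in general capillary-like, aerocyte-like and venous cells, Ptgs2 −0.768 in venous cells, and, in 100 and 13 platelets, Tbxas1 0.376, Alox5ap −0.261 and Alox12 0.169. Where no construction is named the cause was not tested. Gene and type pairs past 2-fold numbered 3307, and 14185 and 30148 with minimums of 10 and 1 UMIs, which let more genes in. The leading type of 6 of the 10 members was the same in the CebpaΔSftpc library alone, which holds the myeloid types.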

Other observations

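AT2-like cells, which make surfactant and in which Cebpa was targeted, also held prostaglandin genes. Their gate used AT2 markers, among them Abca3, whose staining the paper reports as reduced in lineage-traced cells of Cebpa-deleted mice. Cells that had lost these markers would fall outside the gate, so the ratios cover only cells that kept them. Ptgs1 was at 117 CPM (110 to 125, 920 UMIs, 380 cells) in the Cebpa fl/fl and at 146 CPM (124 to 171, 157 UMIs in 61 cells) in the CebpaΔSftpc library, a log2 ratio of 0.32 (0.07 to 0.56). Ptges was at 18.3 CPM (15.4 to 21.6) and 27.9 CPM (18.8 to 39.8), and Slco2a1, the prostaglandin transporter, at 133 and 203 CPM (0.62, 0.40 to 0.83). Hpgd, at 31.1 and 13.9 CPM, lay at or below its level in B cells of 37.1 and 37.5 CPM. Alox5, Alox5ap, Ltc4s, Tbxas1 and Ptgis had at most 12 UMIs each in these cells in either library.

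Ciliated cells, which are epithelial, had the highest Ptges3 of the types with at least 20 cells in both libraries, at 821 and 797 CPM, and Pla2g4a at 82.0 and 100 CPM. In 16 Cebpa fl/fl and 6 CebpaΔSftpc mesothelial-like cells Ptgs1 stood at 476 and 237 CPM and Ptgis at 501 and 220 CPM. The CebpaΔSftpc neutrophil-like cells were divided by Ccl3 and Ccl4 UMIs after the values were seen. Hpgd was at 63.0 CPM (40.7 to 92.9) in the 44 cells with 3 or more and at 160 CPM (138 to 185) in the 295 cells without. Ltc4s was at 35.3 CPM (19.3 to 59.1) and 11.8 CPM (6.43 to 19.7), from 14 UMIs in each group, and these intervals overlapped. Of all Ltc4s UMIs of the neutrophil-like cells 72.4% lay in 5 cells. Median depths of the groups were 5920 and 3603 UMIs.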
